A study of Mus musculus with 6 samples.

Results

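Circadian output factors carry the time signal of the core clock to other genes, and their transcripts were described here in liver of Lmln-KO and WT mice. The set was chosen by gene name and holds 9 genes, Dbp, Tef, Hlf, Nfil3, Ciart, Bhlhe40, Bhlhe41, Rora and Usp2, of the 55367 gene names in the count table. All 9 were present and all 9 passed the filter on low counts that left 18703 genes for testing. Although the set is named for transcription factors, Usp2 encodes a deubiquitinating protease with a rhythmic transcript, and Ciart encodes a repressor that acts by binding other proteins.

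Whole liver of C57BL/6J mice was sequenced in 3 libraries of Lmln-KO animals (genotype Lmln-/-, a homozygous disruption of the metalloprotease gene Lmln) and 3 libraries of WT animals. The Lmln-KO animals were 46 weeks old for replicates 1 and 2 and 39 weeks old for replicate 3, and the WT animals were 46 weeks old. The labels name no treatment. The kind of Lmln allele, the sex of the animals and the hour at which liver was taken are not given in the sources used here, and the last bears on every rhythmic transcript below. Replicates are numbered, with no statement that each is a separate animal, so p-values measure the spread between these libraries.

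Total counts ran from 20957895 to 22494696 in Lmln-KO libraries and from 17388360 to 18272045 in WT libraries. Lmln itself ran from 0.0853 to 0.567 CPM (counts per 1000000 after TMM scaling) in Lmln-KO libraries and from 2.25 to 4.69 CPM in WT libraries. All 7 hepatocyte markers were tested, and their summed level was 60462 to 73669 CPM in Lmln-KO libraries and 75416 to 95388 CPM in WT libraries. The sums did not overlap, as for 5.73% of single tested genes in that direction. All 7 had a negative log2 fold change in Lmln-KO over WT, with a median of -0.11. An unadjusted edgeR p under 0.05 was found for 1 of the 7, beside 4.66% of all tested genes. Xist, the RNA of the inactive X chromosome, was high in Lmln-KO replicate 3 and in WT replicates 2 and 3, while Y-linked transcripts were high in Lmln-KO replicates 1 and 2 and in WT replicate 1. For several genes, differences are therefore also given inside each of these sets (the Y-set and the Xist-set) and from a fit with a term for the split, called the sex-marker term. The Y-set has a single WT library and the Xist-set a single Lmln-KO library. In bulk liver, fewer cells of a type and less RNA per cell cannot be told apart.

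As background, the transcription factors CLOCK and BMAL1 (encoded by Arntl) bind E-box elements and activate their targets at one time of day. Dbp, Tef and Hlf are such targets and encode the PAR-bZIP activators, which bind D-box elements, and NFIL3 represses from the same elements at the opposite time of day. RORA activates genes through ROR elements, where REV-ERB proteins repress, while the DEC proteins (Bhlhe40 and Bhlhe41) and CIART oppose CLOCK and BMAL1. In liver these outputs are known for timing genes of xenobiotic, lipid and glucose metabolism.

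The promoters of the set are shown for their E-boxes, the letters that CLOCK and BMAL1 bind. RefSeq windows (build GRCm38.p6, 250 bases before to 50 bases after a gene's start) were matched by symbol for 8 of the 9 genes, with a pair of windows for Tef and none for Bhlhe40. The E-box CACGTG, which reads the same on both strands, was found in 4 of the 9 windows, which belong to Ciart, Bhlhe41 and Tef, and in 7.15% of all 32851 windows. The Ciart window held 3 copies, starting at bases 135, 193 and 207 from its 5′ end, and 0.0883% of all windows held 3 or more. In the lines below the capitals mark CACGTG, and the Dbp window is set beside the others as one without it. Bases outside the windows were not searched, so a window without CACGTG does not show that the gene lacks an E-box. The windows are Ciart chr3:95882179-95882478 (minus strand), Bhlhe41 chr6:145865371-145865670 (minus strand), Tef chr15:81802423-81802722 and chr15:81811164-81811463 (plus strand) and Dbp chr7:45704997-45705296 (plus strand).
Ciart: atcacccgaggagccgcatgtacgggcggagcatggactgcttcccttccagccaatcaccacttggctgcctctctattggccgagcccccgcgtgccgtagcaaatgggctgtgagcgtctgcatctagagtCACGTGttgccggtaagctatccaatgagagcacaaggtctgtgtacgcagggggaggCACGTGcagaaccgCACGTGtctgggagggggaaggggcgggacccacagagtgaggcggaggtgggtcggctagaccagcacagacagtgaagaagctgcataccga
Bhlhe41: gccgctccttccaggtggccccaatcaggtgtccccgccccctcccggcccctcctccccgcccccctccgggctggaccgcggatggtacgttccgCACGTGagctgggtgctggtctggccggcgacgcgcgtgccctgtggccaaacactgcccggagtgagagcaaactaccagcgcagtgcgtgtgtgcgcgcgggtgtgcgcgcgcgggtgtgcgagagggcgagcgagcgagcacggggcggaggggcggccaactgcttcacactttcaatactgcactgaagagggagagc
Tef window 1: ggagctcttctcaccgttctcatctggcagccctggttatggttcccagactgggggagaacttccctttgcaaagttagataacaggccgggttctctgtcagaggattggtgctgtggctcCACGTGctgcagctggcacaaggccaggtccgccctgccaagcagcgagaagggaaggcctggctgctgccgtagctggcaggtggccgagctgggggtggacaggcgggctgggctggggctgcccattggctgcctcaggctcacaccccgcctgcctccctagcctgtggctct
Tef window 2: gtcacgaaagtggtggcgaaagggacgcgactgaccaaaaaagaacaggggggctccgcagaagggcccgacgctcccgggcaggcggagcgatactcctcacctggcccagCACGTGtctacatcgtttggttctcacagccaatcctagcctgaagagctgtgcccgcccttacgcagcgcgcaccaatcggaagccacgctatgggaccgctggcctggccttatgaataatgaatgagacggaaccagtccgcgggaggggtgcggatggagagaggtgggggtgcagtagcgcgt
Dbp: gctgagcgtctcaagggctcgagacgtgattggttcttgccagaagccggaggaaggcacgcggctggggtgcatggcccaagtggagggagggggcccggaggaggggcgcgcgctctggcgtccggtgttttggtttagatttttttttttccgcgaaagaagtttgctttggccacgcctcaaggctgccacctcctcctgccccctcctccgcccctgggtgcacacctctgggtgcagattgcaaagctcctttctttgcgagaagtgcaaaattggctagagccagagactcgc
The D-box letters TTATGTAA, TTATGCAA and TTACGTAA, searched on both strands, were in none of the 9 windows, against 0.938%, 0.743% and 0.119% of all windows. The half-site AGGTCA of ROR and REV-ERB receptors, searched on both strands, was in the Nfil3 window alone of these 9 and in 16.3% of all windows. A match is a description of the letters and not of binding.

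The comparison of genotypes asked whether the output factors differ in liver when Lmln is disrupted. By edgeR's quasi-likelihood test 0 of the 9 were called at an adjusted p under 0.05, beside 0% of all 18703 tested genes, and with the sex-marker term again 0, beside 0.00535%. DESeq2 and limma-voom called 0 of the 9 as well, and DESeq2 called 0.128% of all genes. At an unadjusted p under 0.05 edgeR counted 1 of the 9, Dbp, where 4.66% of all genes lay. Of the 9 estimates 6 were positive and 3 negative in Lmln-KO over WT, with a median log2 fold change of 0.23, against -0.0038 over all tested genes. That median dropped to 0.019 when Lmln-KO replicate 3, the library of the 39-week-old animal, was left out. It was 0.079 without WT replicate 3, 0.10 without WT replicate 1 and 0.13 without Lmln-KO replicate 2. Taken inside the sets, the median difference in log2 CPM was 0.12 in the Y-set and 0.11 in the Xist-set. Adjusted p-values of the 9 ran from 0.933 to 0.989 in edgeR. The groups did not overlap for 1 of the 9, again Dbp, as for 10.3% of all tested genes, and 0 of the 9 lay below WT in every Lmln-KO library, as 5.73% of all genes did.

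Among the PAR-bZIP activators, Dbp (GRCm38 chromosome 7, 45705088 to 45710203, plus strand) had 41.2, 37.6 and 51.4 CPM in Lmln-KO replicates 1, 2 and 3, against 29.4, 37.1 and 33.6 CPM in WT replicates 1, 2 and 3. Every Lmln-KO library lay above every WT library, as 4.61% of all tested genes did, but Lmln-KO replicate 2 exceeded WT replicate 2 by a small margin. With libraries scaled by total counts only, the lowest Lmln-KO library had 36.3 CPM and the highest WT library 38.1 CPM, so the groups overlapped, and they overlapped with upper quartile scaling too. Dbp averaged 43.4 ± 7.17 CPM in Lmln-KO libraries and 33.4 ± 3.87 CPM in WT libraries (SD, n = 3 each), a log2 fold change of 0.38 (SE 0.145, edgeR unadjusted p 0.031, Benjamini-Hochberg adjusted p 0.933). The 95% interval of the fold ran from 1.03 to 1.64. The log2 fold change was 0.25 without Lmln-KO replicate 3.

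Since every Lmln-KO library lay above every WT library, the Dbp difference could only be positive in both sets of libraries. It was 0.42 in log2 CPM in the Y-set and 0.54 in the Xist-set. With the sex-marker term the log2 fold change was 0.48 (SE 0.0989), and the unadjusted p was 0.000957 in edgeR and 0.000686 in DESeq2. It did not pass after adjustment over all genes in either tool (adjusted p 0.761 and 0.223). Of all tested genes, 4.34% had an unadjusted edgeR p under 0.05 in that fit, and 2 of the 9 did, Dbp and Usp2. Dbp shares 539 exon bases, 18.0% of its exon length, with Sphk2 on the other strand, where reads could not be assigned to one gene. Sphk2, a sphingosine kinase gene, averaged 62.6 ± 5.52 CPM in Lmln-KO libraries and 63.2 ± 4.84 CPM in WT libraries (SD, n = 3 each), a log2 fold change of -0.015.

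Tef (chromosome 15, 81802421 to 81826863, plus strand), the thyrotroph embryonic factor gene, had 145, 146 and 172 CPM in Lmln-KO replicates 1, 2 and 3, against 135, 158 and 161 CPM in WT replicates 1, 2 and 3. The groups overlapped, with Lmln-KO replicate 3 highest and WT replicate 1 lowest, as for Dbp. Its log2 fold change was 0.031 (SE 0.125, edgeR adjusted p 0.981), with a 95% interval of the fold of 0.838 to 1.25 in that fit. Its sign turned without Lmln-KO replicate 3 (-0.046) or WT replicate 1 (-0.044).

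Hlf (chromosome 11, 90336536 to 90390895, minus strand), the hepatic leukemia factor gene, had 76.2, 63.4 and 82.7 CPM in Lmln-KO replicates 1, 2 and 3, against 66.3, 77.6 and 45.4 CPM in WT replicates 1, 2 and 3. WT replicate 3 stood below the other five libraries. Hlf differed by a log2 fold change of 0.23 (SE 0.2, edgeR adjusted p 0.933), and by 0.043 when WT replicate 3 was left out. In the Y-set the difference in log2 CPM was 0.067, and in the Xist-set 0.48.

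Nfil3 (chromosome 13, 52967209 to 52981073, minus strand), which encodes the repressor that competes with the PAR-bZIP activators, had 26.95, 16.9 and 18.1 CPM in Lmln-KO replicates 1, 2 and 3, against 29.5, 20.3 and 22.6 CPM in WT replicates 1, 2 and 3. Replicate 1 was the highest library of each group, and the groups overlapped. Nfil3 had a log2 fold change of -0.23 (SE 0.213, edgeR adjusted p 0.933), with a 95% interval of the fold of 0.606 to 1.21. It was -0.055 without WT replicate 1 and -0.46 without Lmln-KO replicate 1. The difference in log2 CPM was -0.47 in the Y-set and -0.25 in the Xist-set.

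**Figure D1:**
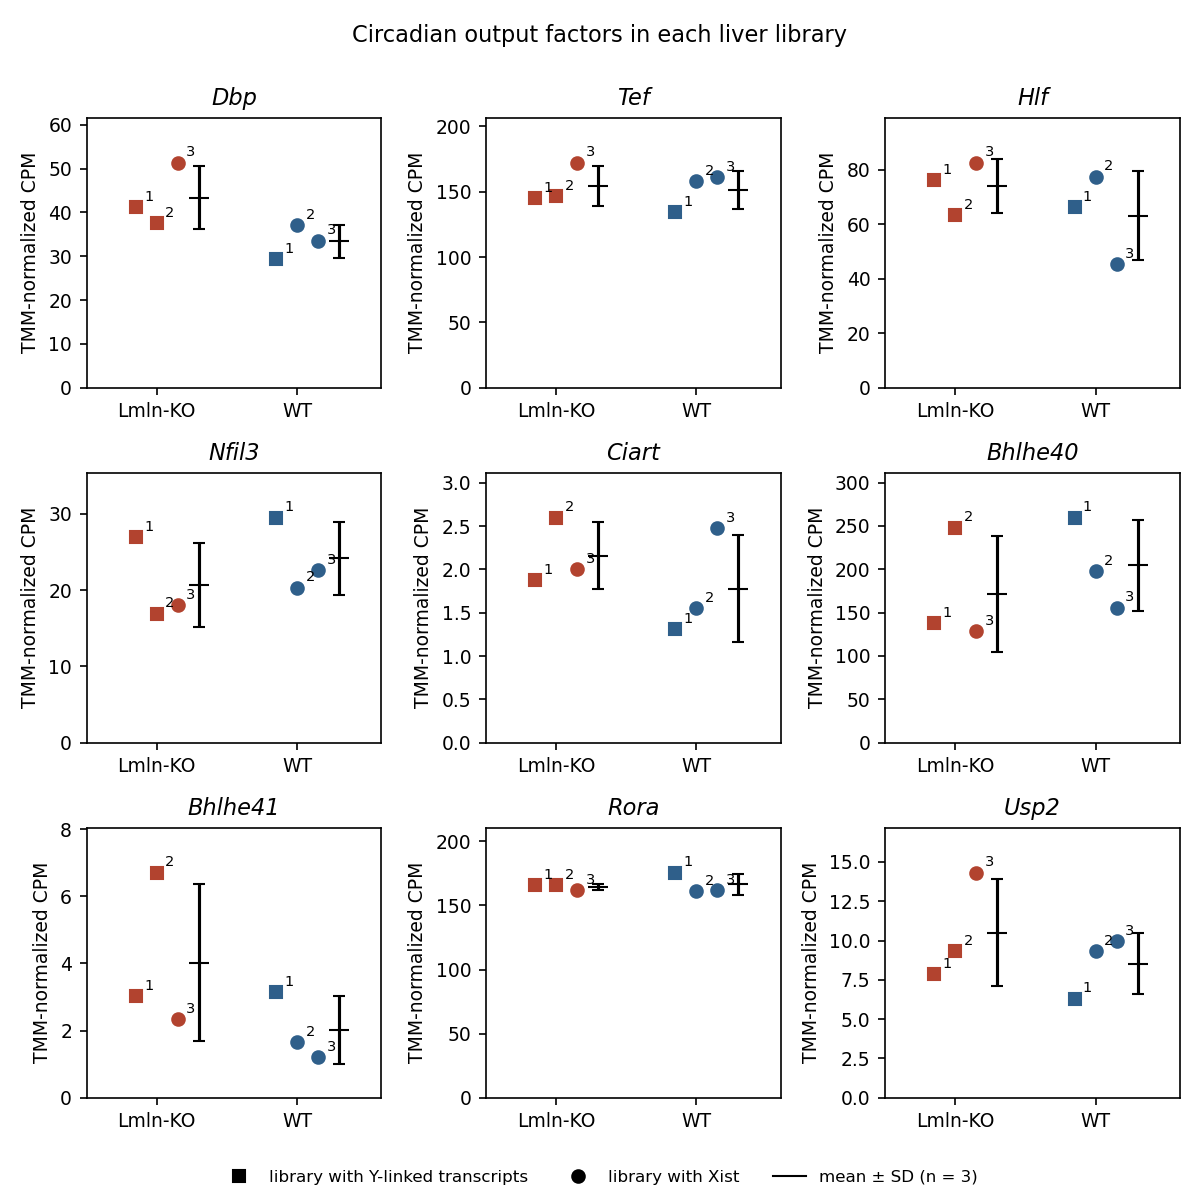
TMM-normalized CPM (y axis, from 0) of the 9 output factors in Lmln-KO and WT liver, 1 point per library numbered by replicate. Squares are libraries with Y-linked transcripts, circles are libraries with Xist, and bars give the mean ± SD of 3 libraries. Dbp is the one gene whose groups do not overlap, and Rora has nearly one level in all 6 libraries.

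Because activators and repressor meet at the same element, the log2 ratio of Dbp to Nfil3 was taken within each library, where scaling has hardly any effect. It was 0.61, 1.15 and 1.50 in Lmln-KO replicates 1, 2 and 3, against -0.0058, 0.87 and 0.57 in WT replicates 1, 2 and 3. The groups overlapped, since WT replicate 2 lay above Lmln-KO replicate 1. The means were 1.09 ± 0.449 in Lmln-KO and 0.48 ± 0.443 in WT (SD, n = 3 each). The difference of 0.61 gave p = 0.2 in a two-sided exact permutation test, in which 3 libraries against 3 cannot go below 0.1. In the Y-set it was 0.88, and in the Xist-set 0.79.

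The log2 ratio of Dbp to Arntl, an activator gene that peaks when Dbp is low, was 2.25, 1.97 and 2.46 in Lmln-KO replicates 1, 2 and 3, against 1.66, 2.16 and 1.61 in WT replicates 1, 2 and 3. WT replicate 2 again fell inside the Lmln-KO range. The difference of 0.42 gave p = 0.2 in the two-sided exact permutation test. These 2 ratios were the only ones tested, and both have a Benjamini-Hochberg adjusted p of 0.2. Arntl itself averaged 9.10 ± 0.490 CPM in Lmln-KO libraries and 9.48 ± 1.36 CPM in WT libraries (SD, n = 3 each).

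The DEC repressors had estimates of opposite sign, and neither passed the test. Bhlhe40 (DEC1, chromosome 6, 108660629 to 108666925, plus strand) had 138, 248 and 128 CPM in Lmln-KO replicates 1, 2 and 3, against 260, 198 and 156 CPM in WT replicates 1, 2 and 3. Lmln-KO replicate 2 lay among the WT libraries and the other Lmln-KO libraries lay below all of them. Bhlhe40 had a log2 fold change of -0.25 (SE 0.302, edgeR adjusted p 0.936), or -0.44 after adjustment for the sex markers (edgeR adjusted p 0.987). Leaving out a library moved the estimate between -0.62 (Lmln-KO replicate 2) and -0.040 (WT replicate 1).

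Bhlhe41 (DEC2, chromosome 6, 145858243 to 145865558, minus strand) had 3.03, 6.71 and 2.34 CPM in Lmln-KO replicates 1, 2 and 3, against 3.15, 1.66 and 1.21 CPM in WT replicates 1, 2 and 3. These are 63, 142 and 55 counts in Lmln-KO libraries against 53, 31 and 21 counts in WT libraries, and at 21 counts the counting error alone is 21.8%. Lmln-KO replicate 2 was the highest, and WT replicate 1 exceeded Lmln-KO replicates 1 and 3. For Bhlhe41 the log2 fold change was 1.01 (SE 0.5, edgeR unadjusted p 0.0826, adjusted p 0.933), with a 95% interval of the fold of 0.891 to 4.52. The sex-marker term brought it to 0.66. Leaving out a library moved it between 0.42 (Lmln-KO replicate 2) and 1.48 (WT replicate 1). Bhlhe41 had the widest spread of the 9, 5.55-fold from the highest to the lowest library.

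Bhlhe41 is also known from immune cells. The 8 markers of B and plasma cells, of which 6 were tested, summed to 20.8 to 38.6 CPM in Lmln-KO libraries and to 38.8 to 402 CPM in WT libraries, where replicates 2 and 3 were high. The 8 Kupffer cell and macrophage markers summed to 229 to 259 CPM in Lmln-KO libraries and to 257 to 327 CPM in WT libraries. Bhlhe41 was lowest in the libraries in which the B and plasma cell sum was highest. The part of these cells in the Bhlhe41 values was not tested. Bhlhe41 shares 19.0% of its exon bases with the predicted gene Gm43909 on the other strand, which had 18 counts over all 6 libraries.

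The log2 ratio of Bhlhe41 to Bhlhe40, chosen after the values of both were seen and so given with no test, was -5.47, -5.19 and -5.72 in Lmln-KO replicates 1, 2 and 3, against -6.32, -6.81 and -6.89 in WT replicates 1, 2 and 3. The groups did not overlap, so the difference had to be positive in both sets. How many other gene pairs separate the groups was not counted. The mean was 1.22 higher in Lmln-KO, with 0.99 in the Y-set and 1.14 in the Xist-set.

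**Figure D2:**
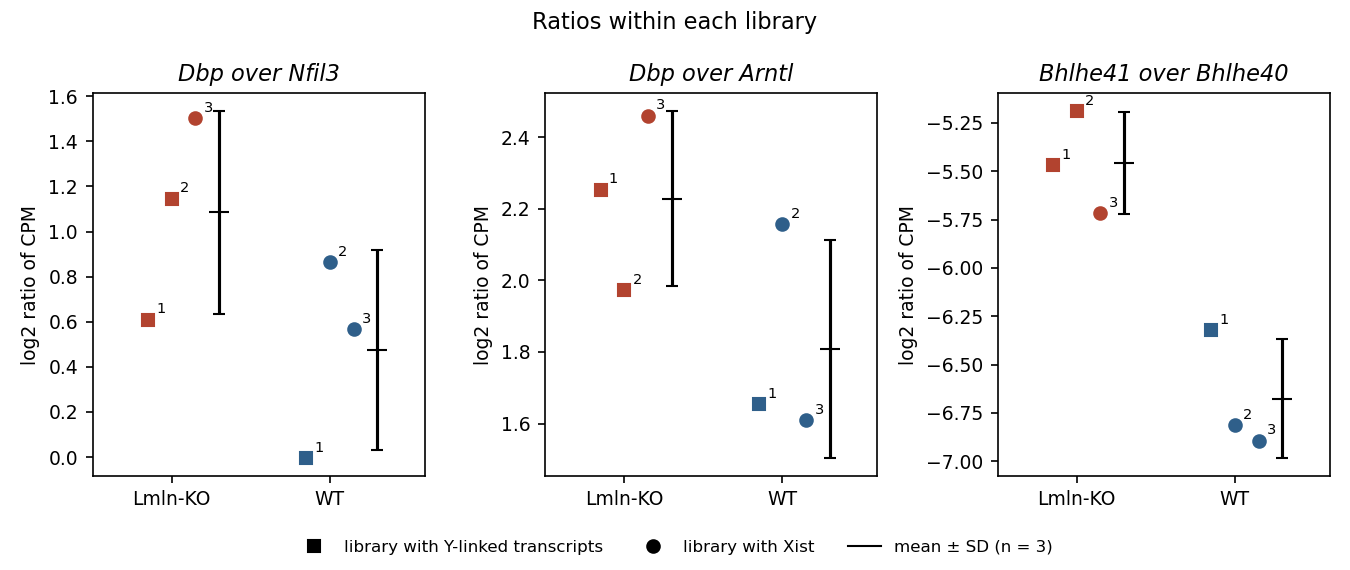
Log2 ratio of CPM within each library (y axis) for Dbp over Nfil3, Dbp over Arntl and Bhlhe41 over Bhlhe40, in Lmln-KO and WT liver, with points numbered by replicate, squares for libraries with Y-linked transcripts, circles for those with Xist, and mean ± SD of 3 libraries. The groups overlap for the first pair of ratios and not for the third. The third runs from -5.72 to -5.19 in Lmln-KO and from -6.89 to -6.32 in WT. It was chosen after the values of both genes were seen and was not tested.

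Rora (chromosome 9, 68653786 to 69388246, plus strand) was the steadiest of the 9. It had 166, 166 and 162 CPM in Lmln-KO replicates 1, 2 and 3, against 176, 161 and 162 CPM in WT replicates 1, 2 and 3, a 1.09-fold range over all libraries. The standard deviation of its log2 CPM over the 6 libraries, 0.0462, was below that of all but 0.647% of tested genes. Rora had a log2 fold change of -0.015 (SE 0.0997, edgeR adjusted p 0.989), and the 95% interval of the fold was 0.844 to 1.16. The estimate lies so near 0 that its sign turned without Lmln-KO replicate 3 (0.0038) or WT replicate 1 (0.028), and with no filter on low counts (0.0014).

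Ciart (chromosome 3, 95878503 to 95882251, minus strand), also known as Chrono, had few reads, 39, 55 and 47 counts in Lmln-KO replicates 1, 2 and 3 against 22, 29 and 43 counts in WT replicates 1, 2 and 3. These are 1.87, 2.60 and 2.00 CPM in Lmln-KO libraries and 1.31, 1.55 and 2.48 CPM in WT libraries. WT replicate 3 lay inside the Lmln-KO range, and at 22 counts the counting error is 21.3%. The log2 fold change was 0.28 (SE 0.313, edgeR adjusted p 0.936), with a 95% interval of the fold of 0.736 to 2.00. Leaving out a library moved it between 0.10 (WT replicate 1) and 0.59 (WT replicate 3). The Ciart difference in log2 CPM was 0.71 in the Y-set and 0.029 in the Xist-set.

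Usp2 (chromosome 9, 44067021 to 44095627, plus strand) had 7.88, 9.31 and 14.3 CPM in Lmln-KO replicates 1, 2 and 3, against 6.30, 9.31 and 9.96 CPM in WT replicates 1, 2 and 3. Lmln-KO replicate 3 was the highest library, and the other Lmln-KO libraries lay inside the WT range. Usp2 had a log2 fold change of 0.30 (SE 0.264, edgeR adjusted p 0.933), and of 0.019 without Lmln-KO replicate 3. With the sex-marker term it was 0.51 (SE 0.147, edgeR unadjusted p 0.00697, adjusted p 0.987). The difference in log2 CPM was 0.44 in the Y-set and 0.57 in the Xist-set.

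Whether the genotype difference itself changed between the sets of libraries was tested with an interaction term in edgeR, added after the data were examined. None of the 9 passed (0 called, beside 0% of all tested genes), and 0 of the 9 had an unadjusted p under 0.05, beside 2.43% of all genes. The interaction estimates ran from -0.78 for Ciart to 0.35 for Hlf on the log2 scale.

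Levels were compared between the genes per exon length, as TPM (counts per exon length, scaled to sum to 1000000 in each library). The length includes bases shared with a gene on the other strand, 18.0% for Dbp and 19.0% for Bhlhe41. Reads there could not be assigned, so the TPM of both genes may be too low. Bhlhe40 was the most abundant, with 86.8 ± 26.9 TPM in Lmln-KO libraries and 103 ± 24.8 TPM in WT libraries (SD, n = 3 each). Tef followed with 47.9 ± 8.42 TPM in Lmln-KO libraries and 45.8 ± 5.57 TPM in WT libraries. Dbp had 35.4 ± 8.69 TPM in Lmln-KO libraries and 26.5 ± 4.04 TPM in WT libraries, and Rora had 30.5 ± 2.06 TPM in Lmln-KO libraries and 30.2 ± 0.966 TPM in WT libraries. Hlf had 27.1 ± 5.64 TPM in Lmln-KO libraries and 22.5 ± 6.40 TPM in WT libraries, and Nfil3 had 24.7 ± 6.83 TPM in Lmln-KO libraries and 28.2 ± 4.69 TPM in WT libraries. The order of Dbp, Rora, Hlf and Nfil3 varied between libraries, except that Rora lay above Hlf in each, though nearly level with it in Lmln-KO replicate 3. The least abundant were Usp2 with 5.36 ± 2.12 TPM in Lmln-KO libraries and 4.21 ± 1.04 TPM in WT libraries, Ciart with 2.30 ± 0.285 TPM in Lmln-KO libraries and 1.87 ± 0.637 TPM in WT libraries, and Bhlhe41 with 1.41 ± 0.716 TPM in Lmln-KO libraries and 0.704 ± 0.338 TPM in WT libraries.

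Across libraries, several of the outputs were high and low in the same libraries. Lmln-KO replicate 3 was the highest library for Dbp, Tef, Hlf and Usp2, and WT replicate 1 was the lowest for Dbp, Tef, Ciart and Usp2. WT replicate 1 was the highest for Nfil3, Bhlhe40 and Rora. Lmln-KO replicate 2 was the highest for Ciart and Bhlhe41. Lmln-KO replicate 3 is also the library of the younger animal and the single Lmln-KO library of the Xist-set. WT replicate 1 is the single WT library of the Y-set. Among the Lmln-KO libraries, age, sex-marker set and replicate cannot be told apart.

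**Figure D3:**
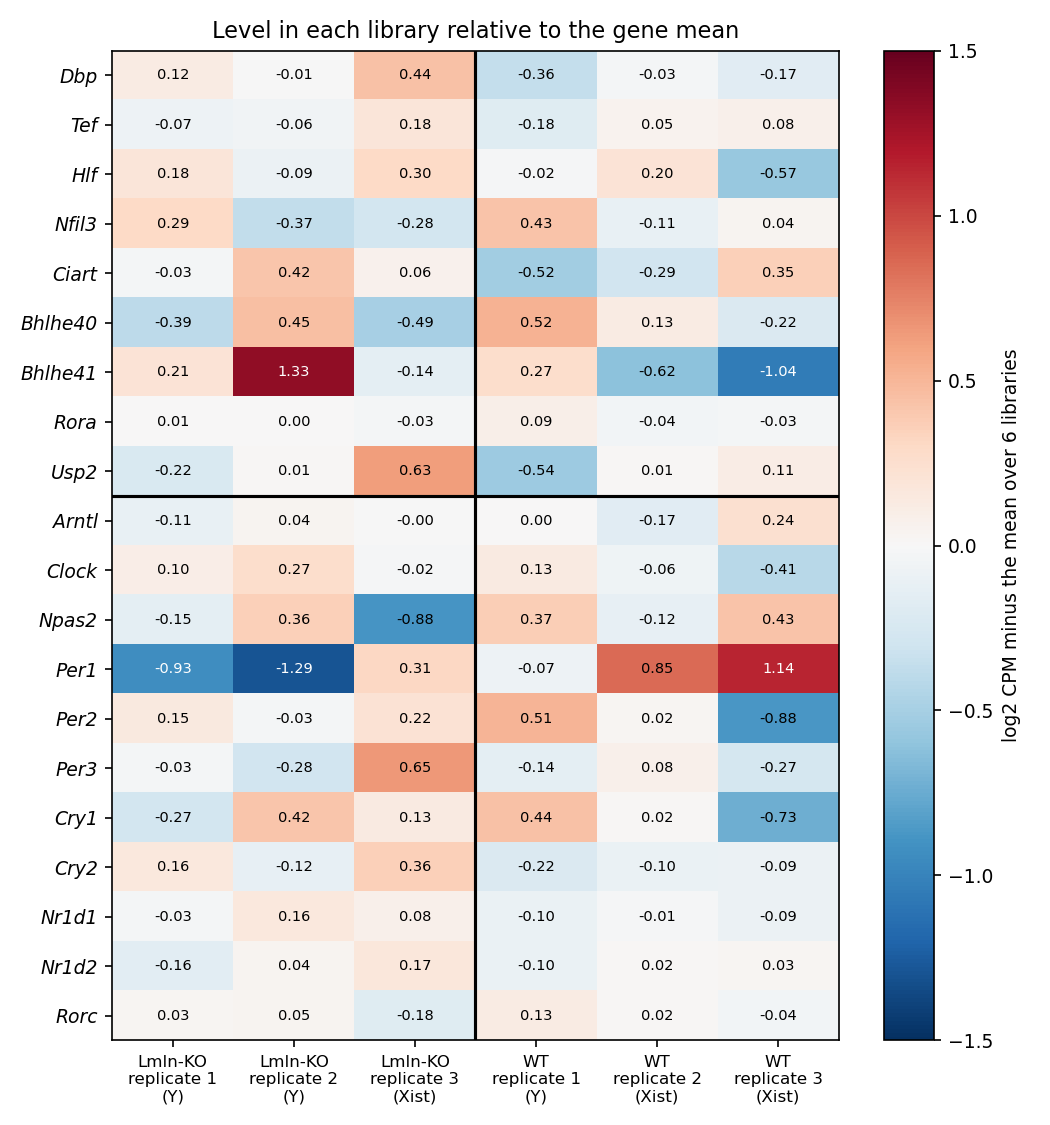
Log2 CPM of each gene in each library minus the gene's mean over the 6 libraries (color scale and printed values), for the 9 output factors above the line and 11 core clock genes below it, with Lmln-KO libraries left of WT libraries. Y and Xist mark the sex-chromosome transcripts of each library. Usp2 and Dbp are high in Lmln-KO replicate 3 and low in WT replicate 1, and Rora is near 0 throughout.

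The genes with the profile closest to Dbp were sought among the 11269 tested genes that had an official symbol and averaged 1 or more in log2 CPM. Likeness was the root mean square difference of mean-centred log2 CPM over the 6 libraries, where a flat profile differs from Dbp by 0.249. The closest were Atmin (0.0765), Sema3d (0.0845), Kcnn1 (0.0898), Atp6ap2 (0.0925) and Cry2 (0.0944). Cry2 encodes a core repressor of CLOCK and BMAL1 and had 40.2, 33.2 and 46.3 CPM in Lmln-KO replicates 1, 2 and 3, against 31.0, 33.6 and 33.9 CPM in WT replicates 1, 2 and 3. Of the set itself Tef came nearest to Dbp (rank 398), followed by Usp2 (rank 950). Nfil3 ranked 9730 of 11269. The closest profiles to Nfil3 were Plppr3 (0.0753), Irak3 (0.077), Tstd3 (0.0804), Yju2 (0.0969) and Nudt2 (0.1), where a flat profile differs by 0.289.

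The core clock genes around these outputs were read from a list of 18, of which 17 were tested and Rorb was too low. None passed in edgeR (0 called, and 0 with an unadjusted p under 0.05, beside 4.66% of all genes), and DESeq2 called 0. Of the 17 estimates 9 were positive and 8 negative, with a median log2 fold change of 0.016, against -0.0038 over all tested genes. Nr1d1, which encodes REV-ERBα, averaged 102.4 ± 6.72 CPM in Lmln-KO libraries and 93.0 ± 3.15 CPM in WT libraries (SD, n = 3 each), with a log2 fold change of 0.14. Per1, an inducible clock repressor gene, had 17.8, 13.8 and 42.4 CPM in Lmln-KO replicates 1, 2 and 3, against 32.4, 61.4 and 75.0 CPM in WT replicates 1, 2 and 3. Its log2 fold change was -1.19 (SE 0.553, edgeR adjusted p 0.933), opposite in sign to that of Dbp. With the sex-marker term DESeq2 called Per1 (log2 fold change -0.85, adjusted p 0.0055, where 0.166% of all genes were called), and edgeR did not (-0.86, adjusted p 0.35).

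**Figure D4:**
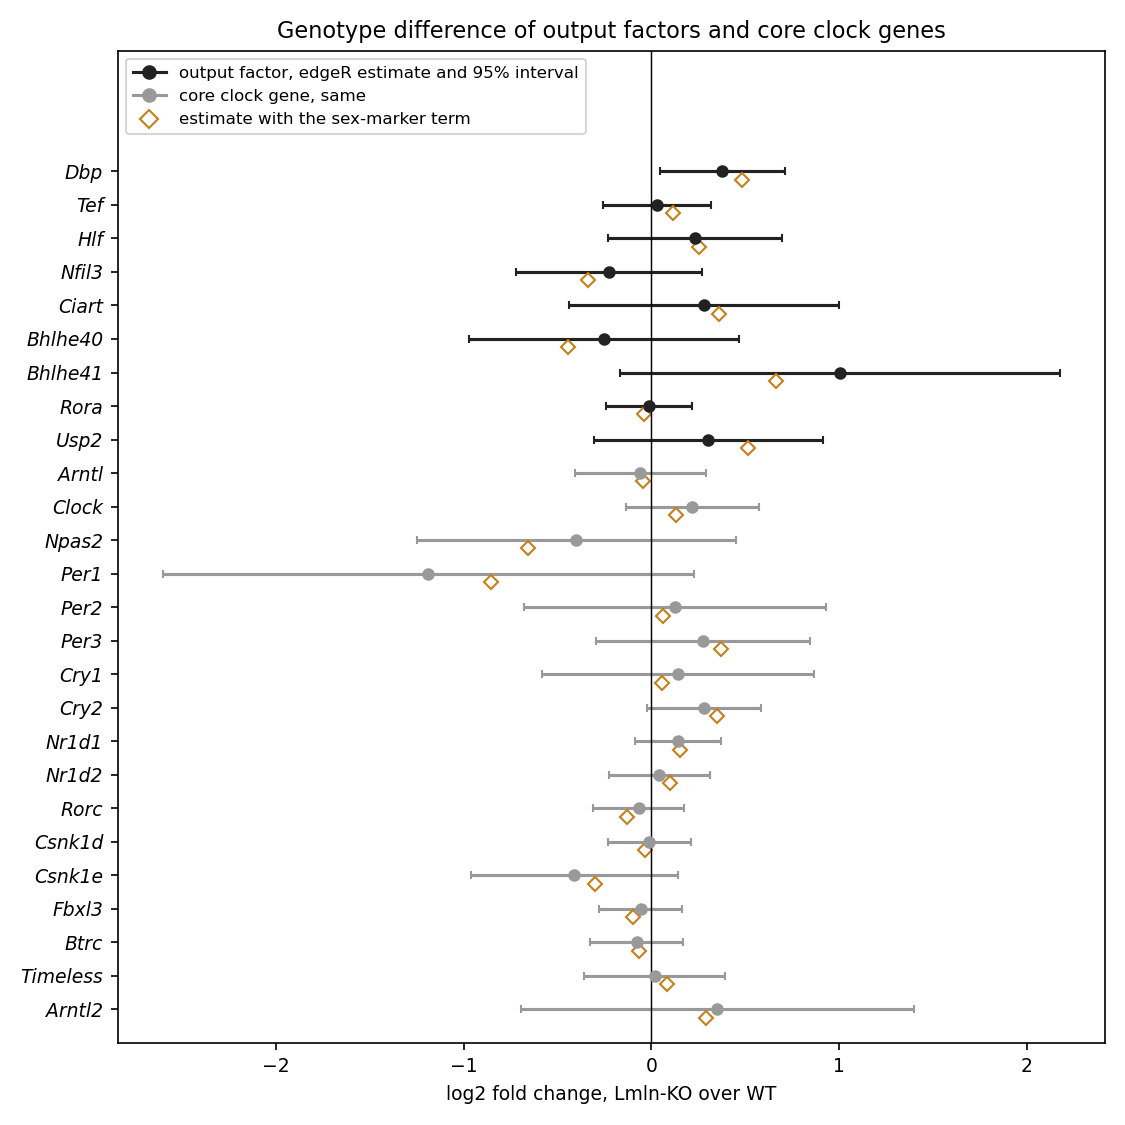
Log2 fold change of Lmln-KO over WT (x axis) for the 9 output factors (black) and 17 core clock genes (gray), as edgeR estimates with 95% intervals, and the estimates with the sex-marker term (open diamonds). Of the 9 output factors, Dbp alone has an interval clear of 0 before adjustment, and none passed after it.

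Genes downstream of the output factors were read from lists. Those lists were drawn up with earlier results of these data known, so their counts cannot show an excess over all genes. Of 20 genes listed as targets of the PAR-bZIP activators in liver, Per1 among them, 0 were called by edgeR or DESeq2. Over all genes edgeR called 0% and DESeq2 0.128%. An unadjusted edgeR p under 0.05 was found for 0 of the 20, beside 4.66% of all genes. Of the 20 estimates 9 were positive and 11 negative, with a median log2 fold change of -0.011. That median was -0.24 without Lmln-KO replicate 3, -0.22 without WT replicate 1 and 0.11 without WT replicate 2. Adjusting for the sex markers gave a median of 0.10, with 11 positive and 9 negative. DESeq2 then called 1 of the 20, Per1 (0.166% of all genes were called). Alas1, which encodes the first enzyme of heme synthesis, had 329, 929 and 286 CPM in Lmln-KO replicates 1, 2 and 3, against 237, 401 and 333 CPM in WT replicates 1, 2 and 3 (log2 fold change 0.67, SE 0.512). Ugt2b5, a glucuronosyltransferase gene, had one of 0.42 (SE 0.249). Negative log2 fold changes were found for Cyp2b10 (-2.20, SE 1.77), Cpt1a (-0.27, SE 0.234) and Gstt1 (-0.21, SE 0.185), each with overlapping groups. Of 16 genes listed with ROR or REV-ERB elements, Nfil3 among them, edgeR called 0 and DESeq2 called 1, G6pc, which was lower in Lmln-KO (0.128% of all genes were called). At an unadjusted edgeR p under 0.05 lay 2 of the 16, beside 4.66% of all genes. Of the 16 estimates 6 were positive and 10 negative, with a median of -0.064. With the sex-marker term 8 were positive and 8 negative, with a median of 0.0069, and leaving out a library moved the median between -0.10 (WT replicate 3) and 0.043 (WT replicate 2). Of 20 circadian regulators and cofactors 0 were called by either tool, beside 0% of all genes in edgeR and 0.128% in DESeq2. An unadjusted edgeR p under 0.05 was found for 0 of these 20, beside 4.66% of all genes, and their median was 0.028.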

How the data were processed

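The deposited values are raw counts per gene name in 6 libraries, made by the authors with featureCounts 2.0.1 on Ensembl 102 exons (GRCm38), per the file headers. The submitters' processing notes also name Subread 2.0.2 and edgeR 3.36.0. No strand option stands in the command, so exon bases shared with a gene on the other strand cannot be assigned. Aligner and its settings were not given in the sources used here. Libraries were matched to groups by the names in their titles, and every pair of libraries differed in a chi-square test of counts (at least 12.2 per degree of freedom).

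Genes were tested with edgeR 4.0.16 (TMM scaling, filterByExpr at a minimum count of 10, robust quasi-likelihood fit on genotype), with p-values adjusted by Benjamini-Hochberg over 18703 genes and called under 0.05. The standard error is the absolute log2 fold change over the square root of F. CPM, TPM and log2 CPM (prior count 2) were computed from the deposited counts. Alternatives were other scalings, DESeq2 1.42.0, limma-voom (limma 3.58.1), other filters, a replicate block, the sex-marker term (Xist against Ddx3y, Eif2s3y, Kdm5d and Uty) and leaving out each library. The steps were tested on simulated counts in R 4.3.3. The 9 genes and the gene lists were chosen with earlier results of these data known. Named genes are the 9, all tested core clock genes, up to 6 of each other list by smallest p, and the 5 closest profiles to Dbp and Nfil3. Counting errors cover sampling of reads only. A gene that this rule would name is not reported here.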

Additional observations from a re-analysis of the deposited data

How the results depend on the processing

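The number of output factors called was 0 in all 17 alternatives. Over all genes edgeR called 0, against 24 with DESeq2, 31 with DESeq2 and the sex-marker term (chosen after seeing the data), 3 with no filter on low counts, 1 with the replicate block and 1 with the sex-marker term, and 0 to 3 when each library was left out. The cause of these shifts was not tested. The median log2 fold change of the 9 output factors ran from 0.019 to 0.22 when each library was left out and from 0.21 to 0.26 otherwise. Dbp, Hlf, Ciart, Bhlhe41 and Usp2 stayed positive and Nfil3 and Bhlhe40 negative in all 17 alternatives, with none called. Tef ran from -0.046 to 0.081 and Rora from -0.038 to 0.028 when each library was left out, and Rora was 0.0014 with no filter. Deviations from the group means correlated between same-numbered libraries at 0.465, -0.311 and 0.405 for replicates 1, 2 and 3. The positive values join libraries of the same sex-marker set and the negative value does not. The correlations therefore cannot show whether the numbers pair the libraries. With the replicate block Dbp had a log2 fold change of 0.37 (edgeR adjusted p 0.756). The differences in the ratios of Dbp to Nfil3 and to Arntl ran from 0.37 to 0.85 and from 0.31 to 0.60 when each library was left out. Of the 5 closest profiles, 5 for Dbp and 4 for Nfil3 were the same with a prior count of 0.5. Depth limits Ciart and Bhlhe41, with 21 to 142 counts per library.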

Other observations

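Rhythmic liver genes outside the set and the core clock included several that were lower in Lmln-KO by estimate. Of 26 genes listed as other rhythmic liver outputs, 17 had a negative and 9 a positive log2 fold change, with a median of -0.27, against -0.0038 over all tested genes. EdgeR called 0 of them, 5 had an unadjusted p under 0.05 (4.66% of all genes did), and DESeq2 called 1, Ppp1r3g (0.128% of all genes were called). The list was drawn up with earlier results of these data known, so these counts cannot show an excess over all genes. With the sex-marker term 16 were negative and 10 positive, with a median of -0.13. In that fit edgeR called 1, Ppp1r3g (0.00535% of all genes), and DESeq2 called 2, Ppp1r3g and Lpin1 (0.166% of all genes), each lower in Lmln-KO. Leaving out a library moved the median between -0.32 (WT replicate 1) and -0.086 (WT replicate 2), and it was -0.12 without Lmln-KO replicate 1. Noct, a rhythmic deadenylase-family gene also known as nocturnin, had 42.1, 93.1 and 89.7 CPM in Lmln-KO replicates 1, 2 and 3, against 104, 171 and 376 CPM in WT replicates 1, 2 and 3. The groups did not overlap, as for 5.73% of all tested genes in that direction, and the log2 fold change was -1.53 (SE 0.588, edgeR unadjusted p 0.0465, adjusted p 0.933). Slc45a3, a solute carrier gene, had 27.5, 28.6 and 28.1 CPM in Lmln-KO libraries and 33.4, 34.5 and 35.4 CPM in WT libraries, with little spread in either group (log2 fold change -0.30, SE 0.0883, edgeR adjusted p 0.933).

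Of 15 genes listed as driven by systemic signals, Per1 among them, 14 were tested, 11 were negative and 3 positive, and edgeR and DESeq2 called 0, with 2 at an unadjusted edgeR p under 0.05, beside 4.66% of all genes. This list too was drawn up with earlier results of these data known. The median log2 fold change was -0.11. With the sex-marker term it was -0.028, with 8 negative and 6 positive, and DESeq2 then called 1, Per1 (0.166% of all genes were called). Leaving out Lmln-KO replicate 1 gave 0.0084, leaving out Lmln-KO replicate 3 gave -0.21 and leaving out WT replicate 1 gave -0.22. Tsc22d3, a glucocorticoid-induced gene, had 81.2, 49.6 and 81.5 CPM in Lmln-KO replicates 1, 2 and 3, against 106, 111 and 161 CPM in WT replicates 1, 2 and 3. The groups did not overlap, as for 5.73% of all tested genes in that direction, so the Tsc22d3 difference had to be negative in both sets. Its log2 fold change was -0.83 (SE 0.241, edgeR adjusted p 0.933), with -0.74 in the Y-set and -0.71 in the Xist-set. Hsp90aa1, a heat shock chaperone gene, had 47.9, 56.0 and 44.1 CPM in Lmln-KO libraries and 43.1, 41.6 and 35.6 CPM in WT libraries (log2 fold change 0.30, SE 0.126, edgeR adjusted p 0.933). Fkbp5, another glucocorticoid-induced gene, was high in the libraries with Xist in both genotypes, with 23.0, 25.1 and 98.2 CPM in Lmln-KO replicates 1, 2 and 3, against 14.2, 93.9 and 81.4 CPM in WT replicates 1, 2 and 3. Fkbp5 was named after its values were seen.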
